A study of Mus musculus with 9 samples.

Results

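Nuclear genes for the respiratory chain were examined in mouse spinal cord across 3 groups of 3 libraries. Members were the gene symbols that begin with Nduf, Uqcr or Atp5, those that begin with Cox followed by a digit from 4 to 8, and Sdha, Sdhb, Sdhc, Sdhd and Cyc1. Symbols that end in -ps were left out. The rule found 100 of the 40879 symbols, and 93 of them had enough counts to be tested among 15351 genes. The members comprised 37 subunits of complex I, 4 of complex II, 9 of complex III, 19 of complex IV and 17 of complex V. Another 8 members, Ndufaf1 to Ndufaf8, are complex I assembly factors, which help to build the enzyme without staying in it. The remaining 6 are copies or paralogs of subunit genes (Ndufa11b, Ndufb11b, Ndufb4b, Ndufb4c, Ndufs6b and Ndufa4l2), so the set is wider than subunits alone. Ndufa4 was placed in complex IV, of which its protein is a subunit despite the complex I name.

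All mice were wild type. The first group had experimental autoimmune encephalomyelitis (EAE) and was given GV1001, the second had EAE and was given vehicle, and the third was naive, without EAE. In EAE, used to model multiple sclerosis, an immune attack on myelin inflames the cord, and GV1001 is a peptide derived from telomerase. Strain, sex, age, dose and day of sampling are not given in the sources used here. The labels do not say that replicates are separate animals, so the p-values measure the spread between these libraries, which may be technical. Libraries were made with QuantSeq, a method that reads the 3′ ends of polyadenylated RNA. Its counts are used without division by transcript length. Levels are compared between samples and not between genes.

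The respiratory chain is a set of protein complexes in the inner mitochondrial membrane. Complexes I and II pass electrons from NADH and succinate to ubiquinone, complex III passes them on to cytochrome c, and complex IV hands them to oxygen. The proton gradient built along the way drives complex V, the ATP synthase. Most subunits are encoded in the nucleus and imported, while a small core set is encoded in mitochondrial DNA. Neurons depend strongly on this pathway, and mitochondrial damage in axons is well known in inflammatory demyelination.

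Total counts ranged from 5247246 to 6174870 per library, and 3 counts, the limit allowed by a count of 0, corresponded to 0.483 to 0.565 CPM (counts scaled to the effective library size). Intervals and floors cover counting error only. The 10 cord markers (Mbp, Gfap and others) summed to between 14687.6 and 20395.1 CPM in the 9 libraries, and none of them was absent. The 12 microglia and myeloid markers summed to 423, 2351 and 697 CPM in GV1001 replicates 1 to 3, 7758, 903 and 2567 CPM in vehicle replicates, and 287, 333 and 365 CPM in naive replicates. The 14 skeletal muscle markers summed to 5854, 1558 and 568 CPM in GV1001 replicates, 192, 754 and 29.7 CPM in vehicle replicates, and 42.0, 51.2 and 369 CPM in naive replicates. The 14 neuron markers summed to 9603, 8793 and 9451 CPM in GV1001, 7243, 9604 and 7704 CPM in vehicle, and 10316.0, 10001.8 and 10437 CPM in naive replicates. In whole tissue, fewer cells of a type and less RNA per cell cannot be told apart. Myeloid sums were thus very unequal within both EAE groups, and muscle sums were very unequal within every group.

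Vehicle against naive asks how the disease state bears on these transcripts. No member passed an adjusted p of 0.05 in the edgeR quasi-likelihood test, where 3 of 15351 genes (0.0195%) did, and the smallest adjusted p of a member was 0.153. DESeq2, which called 6.52% of the 16940 genes to which it gave an adjusted p, and limma-voom, which called 0.0%, also called 0 members. At an unadjusted p under 0.05, edgeR listed 3 members against a background of 19.3% of all genes. Cox6a2 had a positive log2 fold change, where 11.3% of all genes did so at this p, and Ndufs1 and Ndufb4 had negative ones, where 8.06% did. DESeq2 listed 2 and limma-voom 3, but the shares of all genes at this p were computed for edgeR alone. The median log2 fold change of the 93 tested members was −0.04, beside −0.005 for all genes, and 39 of the 93 were positive, beside 49.5% of all genes. Without vehicle replicate 1 the median turned to 0.02 with 53 of 93 positive, and without vehicle replicate 2 it was −0.14 with 19 of 94 positive. Groups did not overlap for 1 member that was higher in vehicle (Ndufb7) and 5 that were lower (Ndufs1, Ndufv1, Ndufb4, Ndufaf4 and Atp5j2), against backgrounds of 12.0% and 11.7% of all genes.

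In GV1001 against vehicle, which asks what the peptide does within EAE, no member passed either. In edgeR 0 of all genes (0.0%) did, and the smallest adjusted p of a member was 0.528. DESeq2 (0.0569% of 21103 genes with an adjusted p) called 0 members and limma-voom (0.0%) called 0. At an unadjusted p under 0.05, edgeR listed 8 members, all with positive log2 fold changes, against 9.08% of all genes in either direction, 4.57% with a positive and 4.51% with a negative one. They were Ndufv1, Ndufs7 and Ndufs8 of the complex I core, the assembly factor Ndufaf5, Uqcrc1 and Uqcr11 of complex III, Cox7a1 of complex IV and Atp5d of complex V. DESeq2 listed 6 and limma-voom 8, again without a computed share of all genes. The median log2 fold change of members was 0.12, beside −0.009 for all genes, and 78 of 93 were positive, beside 48.6% of all genes. The 9 members whose groups did not overlap were all higher in GV1001, as 5.95% of all genes were, and 0 were lower, as 4.57% of all genes were. The median depended on single libraries of both groups. Without GV1001 replicate 1 it was 0.04 with 58 of 94 members positive, without vehicle replicate 1 it was 0.01 with 53 of 93 positive, and without vehicle replicate 2 it was 0.20 with 86 of 94 positive.

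In GV1001 against naive, the comparison of treated disease with healthy cord, 0 members and 0 genes (0.0%) passed in edgeR, with a smallest member adjusted p of 0.640. DESeq2 (0.237% of 19021 genes with an adjusted p) and limma-voom (0.0%) called 0 members. At an unadjusted p under 0.05, edgeR listed 4 members, all positive, against 7.31% of all genes, of which 4.35% were positive and 2.96% negative. These were Cox6a2, Cox7a1 and Cox8b, isoforms known from muscle, and Ndufa4l2. DESeq2 listed 3 and limma-voom 1, also without a computed share of all genes. The median was 0.08, beside 0.002 for all genes, and 73 of 93 members were positive, beside 50.4%. Groups did not overlap for 10 members, all higher in GV1001, where the background was 8.84% higher and 8.24% lower. Without GV1001 replicate 1 the median was 0.01 with 49 of 94 positive, and without naive replicate 2 it was 0.02. The comparisons share libraries in pairs, so their values are given side by side and not as support for each other. Across members the standard error of a log2 fold change had a median of 0.132 in each comparison.

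**Figure D1:**
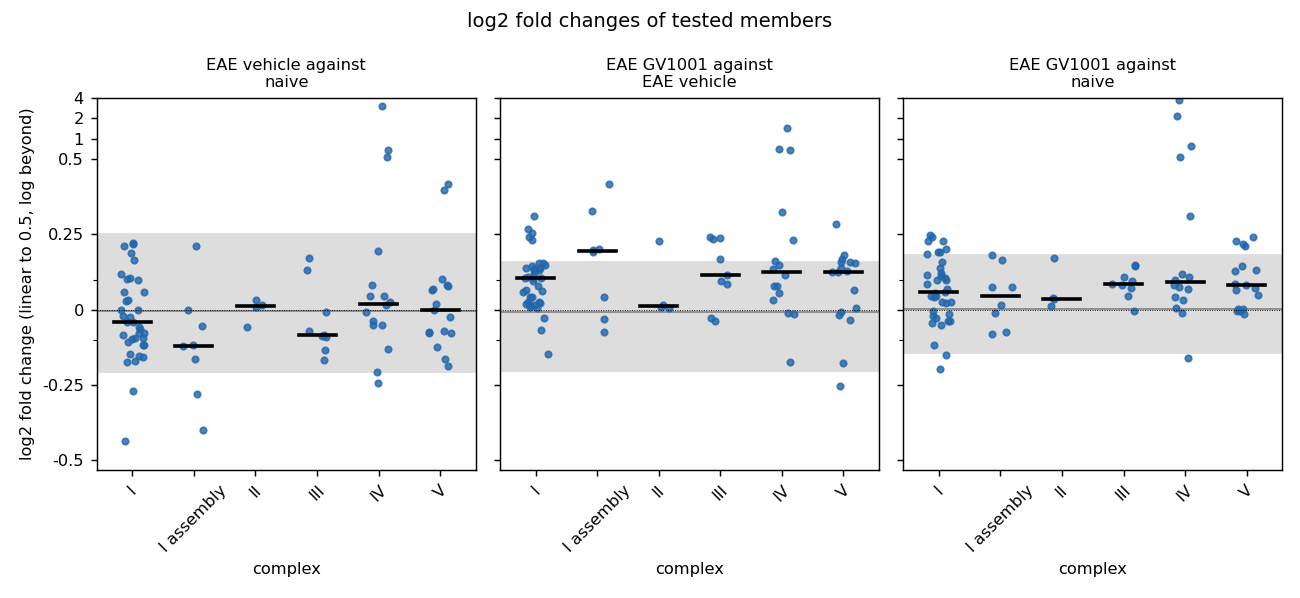
edgeR log2 fold changes (y axis, linear to 0.5 and logarithmic beyond) of tested members by complex (x axis) in the 3 comparisons; blue points are genes, black bars are medians, and the grey band with its line spans the quartiles and median of all 15351 genes tested; the 2 tested copies are not drawn. In GV1001 against vehicle the medians lie between 0.01 for complex II and 0.20 for the assembly factors, and the points far above the rest belong to complex IV.

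Libraries of one diseased group differed widely in their level of these transcripts. Members took 2.50%, 2.09% and 2.18% of all counts in GV1001 replicates 1 to 3. In vehicle replicates they took 1.78%, 2.49% and 2.08%, and in naive replicates 2.17%, 2.02% and 2.14%. The 95% Wilson half-widths were 0.011 to 0.013 percentage points. GV1001 replicate 1 and vehicle replicate 2 stood highest and vehicle replicate 1 lowest, so the highest and lowest vehicle libraries enclosed all naive ones.

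Most genes of the chain shared this order. GV1001 replicate 1 held the highest level of 40 of the 93 tested members (43.0%, beside 12.6% of all genes), and vehicle replicate 2 that of 26 (28.0%, beside 10.8%). Vehicle replicate 1 held the lowest level of 51 members (54.8%, beside 21.2%) and vehicle replicate 3 that of 19 (20.4%, beside 11.6%). Within the vehicle group, 83 of 93 members were higher in replicate 2 than in replicate 1, with a median difference of 0.34 in log2 CPM. Of all genes 48.6% were higher there, with a median of −0.02. Relative to the naive mean, the median member stood at 0.19, −0.04 and 0.03 log2 units in GV1001 replicates. It stood at −0.21, 0.15 and −0.09 in vehicle replicates, and at 0.03, −0.07 and 0.04 in naive replicates. The median SD of a member's log2 CPM was 0.158 in GV1001, 0.214 in vehicle and 0.0893 in naive libraries, beside 0.216, 0.264 and 0.163 for all genes.

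The order of the diseased libraries ran nearly opposite to that of the myeloid markers. Median myeloid levels relative to naive were 0.41, 2.59 and 1.09 log2 units in GV1001 replicates and 4.23, 1.33 and 2.85 in vehicle replicates. Vehicle replicate 1, lowest for the chain, was thus highest for these markers, and GV1001 replicate 1 was the reverse. Neuron markers stood at −0.02, −0.23 and −0.11 in GV1001 replicates and −0.58, −0.02 and −0.39 in vehicle replicates, so vehicle replicate 1 was lowest there too. It was also the lowest library for the oligodendrocyte (−0.34), Schwann cell (−1.34) and spinal cord (−0.48) markers. Muscle markers stood at 5.65, 4.08 and 2.56 in GV1001 replicates and 1.0, 2.85 and −1.42 in vehicle replicates. GV1001 replicate 1 and vehicle replicate 2, highest for the chain, were thus also the highest of their groups for muscle. Vehicle replicate 3, and not replicate 1, was lowest for muscle. No myeloid or neuron marker was at 0 in any library. The part of cell makeup in the members' levels was not tested.

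**Figure D2:**
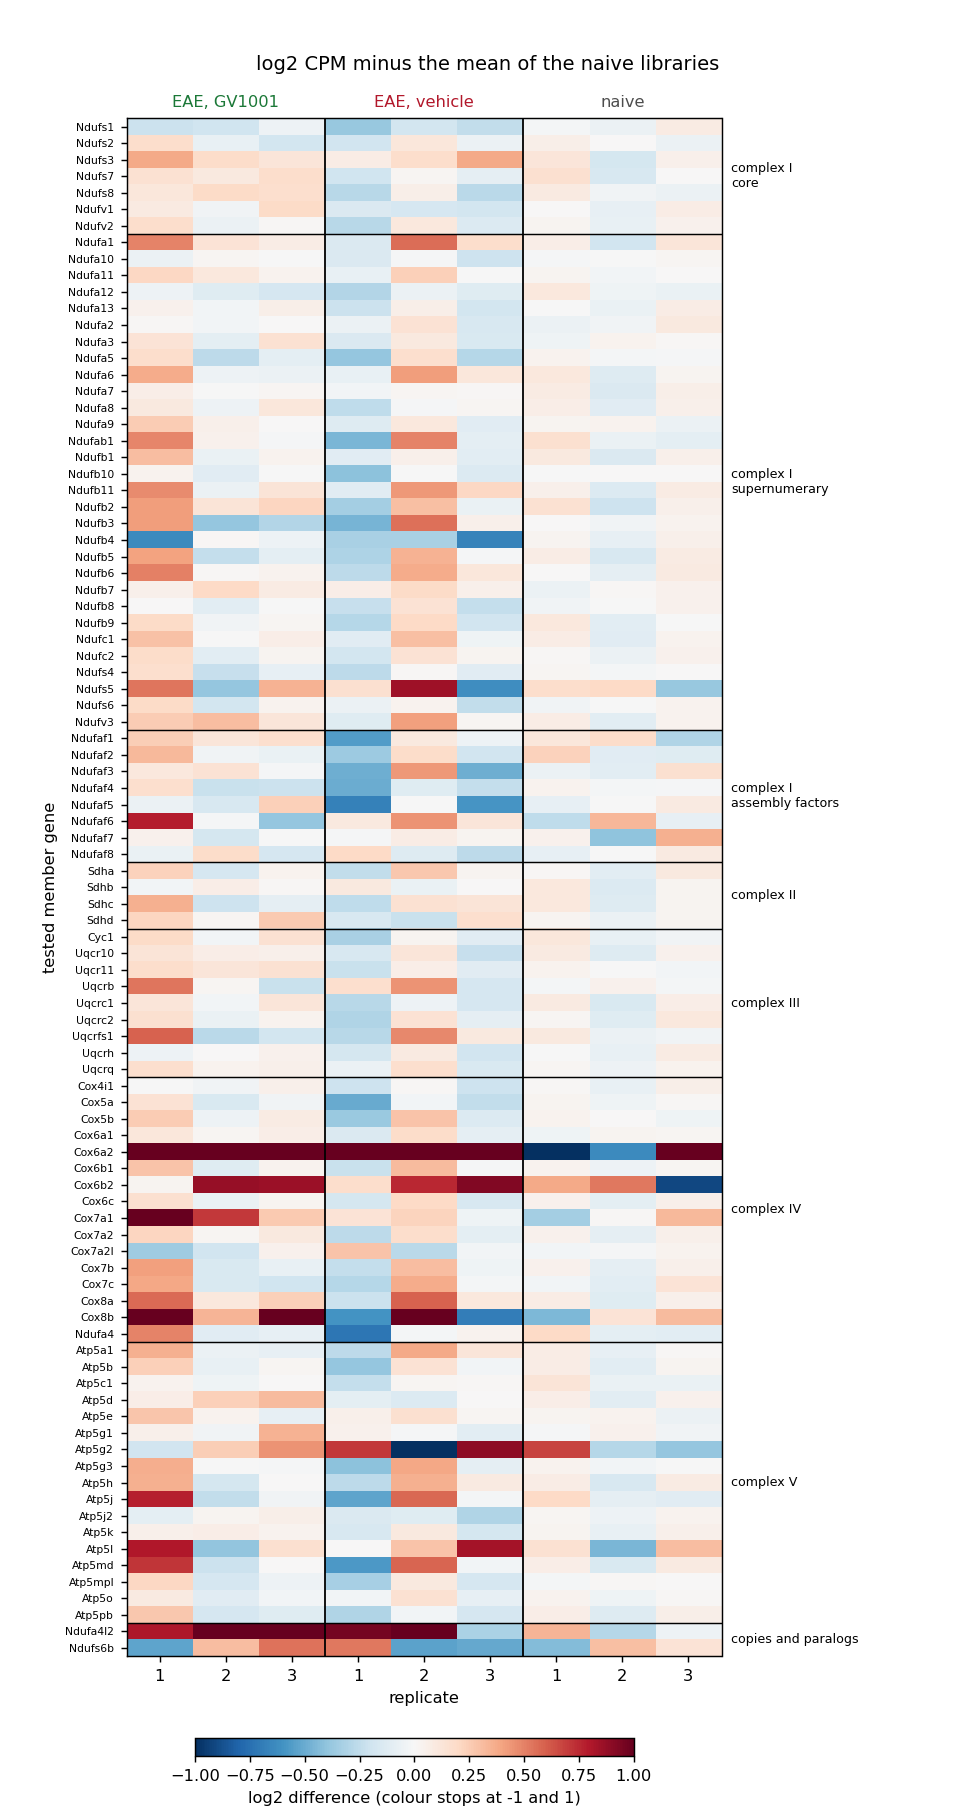
Each row is one of the 93 tested members, grouped by complex, and each column one library; colour gives log2 CPM minus the mean of the naive libraries, from −1 (blue) to 1 (red), and values past these limits keep the end colour. GV1001 replicate 1 and vehicle replicate 2 are red for most rows and vehicle replicate 1 is blue, with 80, 71 and 17 members above the naive mean.

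Promoters are shown as background, since transcription factors such as NRF1 are textbook regulators of these genes. Whether such factors had a part in the order of the libraries was not tested. RefSeq promoter windows (250 bases before to 50 after the start, GRCm38.p6) were found for 78 members. All motifs were searched on both strands. That of NRF1, GCGCA followed by any base and GCGC, occurred in 18 of the 78 (23.1%), beside 6.6% of 17492 protein-coding promoters. The YY1 motif AAGATGGCG occurred in 7 (8.97%, beside 1.94%), the ESRRA motif TCAAGGTCA in 2 (2.56%, beside 0.332%) and the GABPA motif CCGGAAGT in 5 (6.41%, beside 5.29%). The windows of 5 genes were picked after their matches were seen, to show how these letters lie. Capitals mark motif matches on either strand.
Sdha (chr13:74350191-74350490, minus strand): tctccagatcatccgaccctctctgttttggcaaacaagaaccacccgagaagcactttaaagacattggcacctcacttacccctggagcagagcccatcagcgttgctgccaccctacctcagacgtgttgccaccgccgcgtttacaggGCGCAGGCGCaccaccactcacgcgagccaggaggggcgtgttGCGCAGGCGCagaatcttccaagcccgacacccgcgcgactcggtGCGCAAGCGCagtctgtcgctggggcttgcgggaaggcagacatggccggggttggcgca
Cox6a1 (chr5:115348909-115349208, minus strand): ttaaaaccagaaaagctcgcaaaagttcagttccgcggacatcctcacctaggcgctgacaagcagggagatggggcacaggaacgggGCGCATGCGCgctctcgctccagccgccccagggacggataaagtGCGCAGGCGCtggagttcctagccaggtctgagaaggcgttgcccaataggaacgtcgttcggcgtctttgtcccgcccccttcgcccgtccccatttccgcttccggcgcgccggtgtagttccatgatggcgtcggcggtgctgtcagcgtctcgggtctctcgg
Uqcrc1 (chr9:108936398-108936697, plus strand): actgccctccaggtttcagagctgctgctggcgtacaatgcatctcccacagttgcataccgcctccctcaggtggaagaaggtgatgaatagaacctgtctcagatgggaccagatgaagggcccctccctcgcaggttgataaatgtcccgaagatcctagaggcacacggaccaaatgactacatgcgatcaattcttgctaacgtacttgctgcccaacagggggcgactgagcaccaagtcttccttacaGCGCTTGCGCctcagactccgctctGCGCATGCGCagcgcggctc
Ndufs6 (chr13:73328433-73328732, minus strand): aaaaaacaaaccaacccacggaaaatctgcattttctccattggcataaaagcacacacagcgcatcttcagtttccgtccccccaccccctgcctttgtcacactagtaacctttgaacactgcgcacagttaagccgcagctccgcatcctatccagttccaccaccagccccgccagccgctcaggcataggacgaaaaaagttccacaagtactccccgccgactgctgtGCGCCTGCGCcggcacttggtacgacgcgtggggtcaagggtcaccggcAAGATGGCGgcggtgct
Atp5g3 (chr2:73911277-73911576, minus strand): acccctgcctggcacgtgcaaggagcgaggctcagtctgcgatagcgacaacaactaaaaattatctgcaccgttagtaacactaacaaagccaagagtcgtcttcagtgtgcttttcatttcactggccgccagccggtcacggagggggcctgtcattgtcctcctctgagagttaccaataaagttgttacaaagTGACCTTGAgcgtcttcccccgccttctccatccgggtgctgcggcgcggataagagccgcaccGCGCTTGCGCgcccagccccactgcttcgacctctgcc
The Sdha window held 3 NRF1 matches, and those of Cox6a1 and Uqcrc1 held 2 each. The Ndufs6 window held 1 NRF1 and 1 YY1 match, and the Atp5g3 window held 1 NRF1 and 1 ESRRA match. These matches describe letters and no binding was measured. Tested members with an NRF1 match had median log2 fold changes of −0.03, 0.10 and 0.06 in vehicle against naive, GV1001 against vehicle and GV1001 against naive. Those with a window and no match had −0.03, 0.12 and 0.08.

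Complex I, which takes electrons from NADH, had median log2 fold changes of −0.04 in vehicle against naive, 0.10 in GV1001 against vehicle and 0.06 in GV1001 against naive. In the second comparison 34 of its 37 subunits were positive, including 7 of 7 core subunits. Its summed level was 8108, 6940.1 and 7255 CPM in GV1001 replicates, 6241, 8074 and 6724 CPM in vehicle replicates, and 7322, 6851 and 7333 CPM in naive replicates. The vehicle libraries lay on both sides of all naive ones.

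Ndufs1, an iron-sulfur subunit of the arm that oxidises NADH, had the smallest p of the complex in vehicle against naive. It had 109, 110.0 and 122 CPM in GV1001 replicates, 97.2, 111 and 106 CPM in vehicle replicates, and 125, 121 and 134 CPM in naive replicates. Every vehicle library was below every naive one, at a log2 fold change of −0.27 ± 0.096 (SE, edgeR adjusted p = 0.153). Ndufv1, the flavoprotein subunit that binds NADH, had 207, 189 and 222 CPM in GV1001, 175, 172 and 171 CPM in vehicle, and 194, 184 and 205 CPM in naive replicates. Its vehicle libraries were almost equal and below all the others, with log2 fold changes of 0.25 ± 0.092 in GV1001 against vehicle (edgeR adjusted p = 0.528) and −0.17 ± 0.092 in vehicle against naive (0.354). Ndufv3, an accessory subunit beside it, had 154, 160 and 140.0 CPM in GV1001, 118, 171 and 131 CPM in vehicle, and 136, 120 and 132 CPM in naive replicates. GV1001 and naive libraries did not overlap (0.23 ± 0.13, edgeR adjusted p = 0.755), while the vehicle libraries spanned both groups.

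Members also differed in how steady they were. Ndufa10 and Ndufa7, both accessory subunits, were among the 3 members with the smallest spread within groups. Ndufa10 had 409, 431 and 425 CPM in GV1001, 385, 424 and 369 CPM in vehicle, and 422, 424 and 432 CPM in naive replicates. Ndufa7 had 154, 146 and 149 CPM in GV1001, 144, 149 and 148 CPM in vehicle, and 155, 133 and 153 CPM in naive replicates, and its groups overlapped throughout. Ndufb8, a subunit of the membrane arm with the highest counts in the complex, had 537, 499 and 535 CPM in GV1001, 457, 594 and 454 CPM in vehicle, and 523, 535 and 553 CPM in naive replicates. Its vehicle libraries held both its highest and its lowest value.

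Reads of some subunits may be shared with copies. Ndufs5 had 112, 63 and 115 counts in GV1001, 88, 141 and 55 in vehicle, and 91, 96 and 60 in naive replicates. Its pseudogene Ndufs5-ps, left out by the rule, had 10, 37 and 34, then 27, 23 and 15, and then 25, 32 and 39 in the same groups. How the counting treated reads that match both is not given in the sources used here, so Ndufs5 is uncertain, and the same holds for Ndufb4, Atp5l and Atp5g2. Ndufb4b and Ndufb4c had 10 counts or fewer in every library, Ndufa11b had 3 or fewer and Ndufb11b had 0, and none of these copies was tested.

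The 8 assembly factors had a more negative median than any complex in vehicle against naive, −0.12 with 7 of 8 negative, and a more positive one than any of the 5 complexes in GV1001 against vehicle, 0.20 with 6 of 8 positive. Ndufaf5, whose human counterpart modifies the core subunit Ndufs7 during assembly, had 32.8, 30.6 and 40.3 CPM in GV1001, 21.2, 34.1 and 22.6 CPM in vehicle, and 32.3, 34.0 and 36.3 CPM in naive replicates. Vehicle replicates 1 and 3 were below all the other libraries and replicate 2 was level with them. The log2 fold change was −0.40 ± 0.19 in vehicle against naive (edgeR adjusted p = 0.277) and 0.42 ± 0.19 in GV1001 against vehicle (0.548). Without vehicle replicate 2, Ndufaf5 was lower in vehicle than in naive cord by edgeR (−0.64 ± 0.16, adjusted p = 0.0353). It was then the 1 member of 94 tested that passed, where 10.4% of all genes did and 2.96% did as lower in vehicle.

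Complex II, which oxidises succinate and is the sole complex with no mitochondrially encoded subunit, had medians of 0.01, 0.01 and 0.04 in the same 3 comparisons. Sdha, the flavoprotein that binds succinate, had 363, 275 and 316 CPM in GV1001, 261, 373 and 315 CPM in vehicle, and 311, 287 and 330.2 CPM in naive replicates. Sdhb, the iron-sulfur subunit, had 238, 255 and 244 CPM in GV1001, 260.1, 231 and 243 CPM in vehicle, and 261, 221 and 247 CPM in naive replicates. Unlike most members, Sdhb was highest among diseased libraries in vehicle replicate 1 and lowest in vehicle replicate 2.

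The membrane anchors gave no separation either. Sdhc had 231, 157 and 170 CPM in GV1001, 152, 201 and 198 CPM in vehicle, and 195, 166 and 184 CPM in naive replicates. Sdhd had 59.4, 51.7 and 61.4 CPM in GV1001, 45.8, 43.8 and 57.4 CPM in vehicle, and 52.1, 49.0 and 52.2 CPM in naive replicates, with a log2 fold change of 0.23 ± 0.13 in GV1001 against vehicle (edgeR adjusted p = 0.607). Those of Sdha, Sdhb and Sdhc in that comparison were 0.01 ± 0.14, 0.00 ± 0.094 and 0.02 ± 0.16.

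Complex III, the cytochrome bc1 complex, had medians of −0.08, 0.12 and 0.09. Its summed level was 2349, 2084 and 2155 CPM in GV1001, 1846, 2325 and 1906 CPM in vehicle, and 2156, 1981 and 2168 CPM in naive replicates. Uqcrc1, a core subunit on the matrix side, had 188, 169 and 187 CPM in GV1001, 142, 166 and 154 CPM in vehicle, and 183, 155 and 181 CPM in naive replicates. Its log2 fold changes were 0.24 ± 0.10 in GV1001 against vehicle (edgeR adjusted p = 0.539) and −0.17 ± 0.10 in vehicle against naive (0.422). Every GV1001 library was above every vehicle library, and the vehicle and naive libraries overlapped.

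Uqcr11, a small accessory subunit, was the third of the 3 steadiest members. It had 133, 128 and 132 CPM in GV1001, 101, 124 and 109 CPM in vehicle, and 121, 118 and 116 CPM in naive replicates. The GV1001 libraries lay above all the others, at 0.23 ± 0.096 against vehicle (edgeR adjusted p = 0.539) and 0.15 ± 0.095 against naive (0.783). Cyc1, the heme-bearing cytochrome c1, had 120, 103 and 117 CPM in GV1001, 83.9, 107 and 96.7 CPM in vehicle, and 113, 99.7 and 102 CPM in naive replicates, with overlap between all groups. Uqcrh, the hinge protein, had 503, 522 and 537 CPM in GV1001, 461, 554 and 456 CPM in vehicle, and 521, 494 and 552 CPM in naive replicates.

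**Figure D3:**
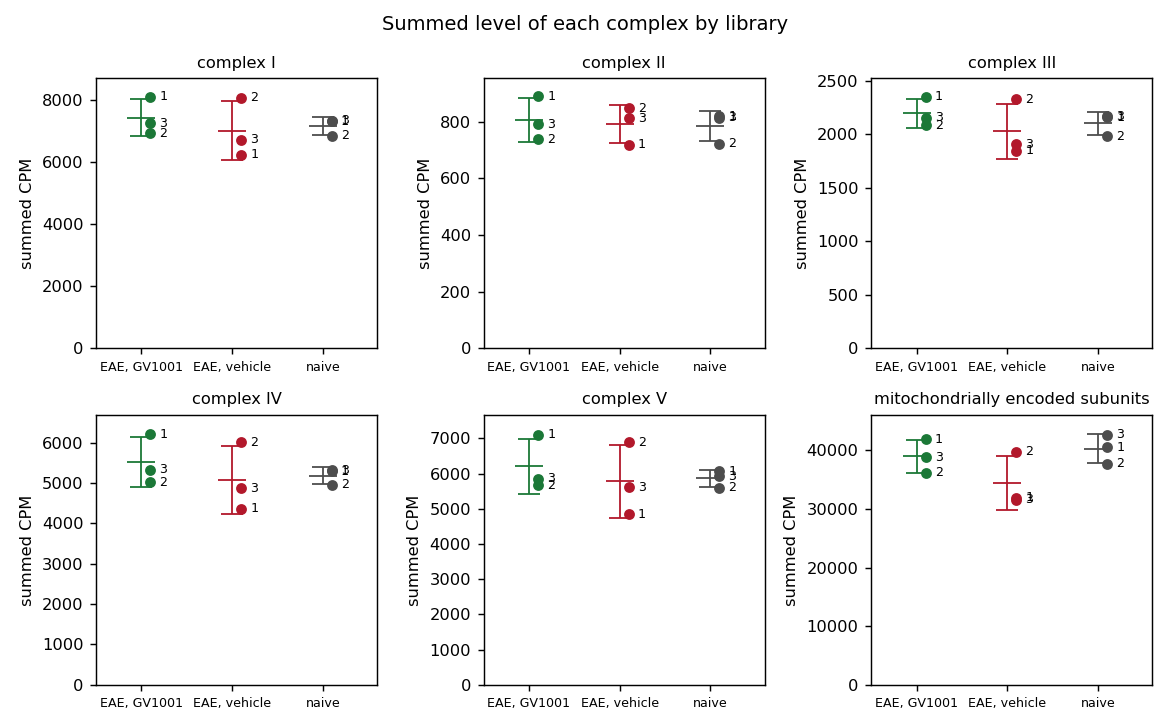
Summed CPM (y axis, from 0) of each complex and of the 13 mitochondrially encoded subunits in each library; numbered points are replicates, and bars give the mean ± SD of 3 libraries. Complexes I to V have the same order within the vehicle group, with replicate 2 highest and replicate 1 lowest, and the naive points lie between them.

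Complex IV, cytochrome c oxidase, carries isoforms that differ by tissue. Its medians were 0.02, 0.13 and 0.09, and −0.01, 0.08 and 0.08 without the muscle isoforms Cox6a2, Cox7a1 and Cox8b. Among the widely expressed subunits, Cox4i1, which has a regulatory role, had 675, 659 and 701 CPM in GV1001, 585, 682 and 585 CPM in vehicle, and 680.4, 643 and 705 CPM in naive replicates. Cox6c, with the highest counts in the complex, had 815, 696 and 744 CPM in GV1001, 645, 835 and 654 CPM in vehicle, and 752, 683 and 755 CPM in naive replicates. Both had vehicle libraries on the low side in replicates 1 and 3 alone.

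Cox6a1, Cox6b1, Cox7a2, Cox7b and Cox8a, the common partners of the restricted isoforms, had log2 fold changes of −0.05 to 0.20 in vehicle against naive and 0.03 to 0.16 in GV1001 against vehicle, with edgeR adjusted p of 0.617 or more. Cox8a had 678, 493 and 540.3 CPM in GV1001, 395, 690.1 and 494 CPM in vehicle, and 484, 421 and 474 CPM in naive replicates. GV1001 and naive libraries of Cox8a did not overlap (0.31 ± 0.19, edgeR adjusted p = 0.766), and vehicle libraries spanned both. Ndufa4 had 325, 212 and 217 CPM in GV1001, 139, 227 and 235 CPM in vehicle, and 264, 215 and 214 CPM in naive replicates. Cox7a2l, a factor for joining complexes III and IV, ran the other way, with 68.6, 76.8 and 90.4 CPM in GV1001, 107, 72.8 and 86.3 CPM in vehicle, and 86.4, 87.2 and 90.2 CPM in naive replicates. Among all libraries Cox7a2l was highest in vehicle replicate 1 and lowest in GV1001 replicate 1.

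The muscle isoforms Cox6a2 and Cox8b had the largest fold changes of all members in GV1001 against naive. Cox6a2, the heart and skeletal muscle form of subunit 6a, had 84.0, 21.7 and 5.48 CPM in GV1001 replicates, 28.6, 32.6 and 7.60 CPM in vehicle replicates, and 0, 0.521 and 7.74 CPM in naive replicates. The naive values rested on 0, 3 and 42 counts. Its log2 fold changes were 3.06 ± 1.19 in vehicle against naive (edgeR adjusted p = 0.187), 0.68 ± 0.83 in GV1001 against vehicle (0.820) and 3.74 ± 1.14 in GV1001 against naive (0.640). The size of these values depended on the settings. limma-voom gave 4.66, 0.12 and 4.79 in the same comparisons, and edgeR without naive replicate 3 gave 6.30 in vehicle against naive and 6.99 in GV1001 against naive. Without GV1001 replicate 1 the log2 fold change in GV1001 against vehicle was −0.76. Naive replicate 3 lay above vehicle replicate 3 and GV1001 replicate 3, so the groups overlapped.

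Cox7a1, the muscle form of subunit 7a, had 33.5, 22.7 and 16.6 CPM in GV1001, 15.1, 16.1 and 13.3 CPM in vehicle, and 10.8, 13.9 and 17.3 CPM in naive replicates. GV1001 libraries lay above all vehicle libraries, at 0.70 ± 0.26 (edgeR adjusted p = 0.528). Cox8b, known in mouse from muscle and brown fat, had 17.0, 2.44 and 6.61 CPM in GV1001, 1.11, 7.30 and 1.01 CPM in vehicle, and 1.26, 2.08 and 2.40 CPM in naive replicates. Its log2 fold changes were 1.46 ± 0.75 against vehicle (edgeR adjusted p = 0.584) and 2.14 ± 0.82 against naive (0.656), and without GV1001 replicate 1 they were 0.58 and 1.25. GV1001 replicate 1, with the highest muscle sum, was also highest for all 3 isoforms.

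Muscle transcripts and isoforms did not match in every library. Vehicle replicate 1 had 28.6 CPM of Cox6a2 with 192 CPM of muscle markers, while naive replicate 3 had 7.74 CPM with 369 CPM. GV1001 replicate 3 had 5.48 CPM of Cox6a2 with 568 CPM. All 14 muscle markers were tested and 1, Actn3, was at 0 in 1 library, vehicle replicate 3. They had a median log2 fold change of 1.07 in vehicle against naive, 3.12 in GV1001 against vehicle and 4.12 in GV1001 against naive. The 3 brown fat markers summed to 6.97, 8.56 and 23.2 CPM in GV1001, 4.80, 6.92 and 8.27 CPM in vehicle, and 9.56, 13.7 and 9.22 CPM in naive replicates, and Ucp1 or Adipoq was at 0 in 4 libraries. The part of muscle RNA in these isoforms' values was not tested.

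**Figure D4:**
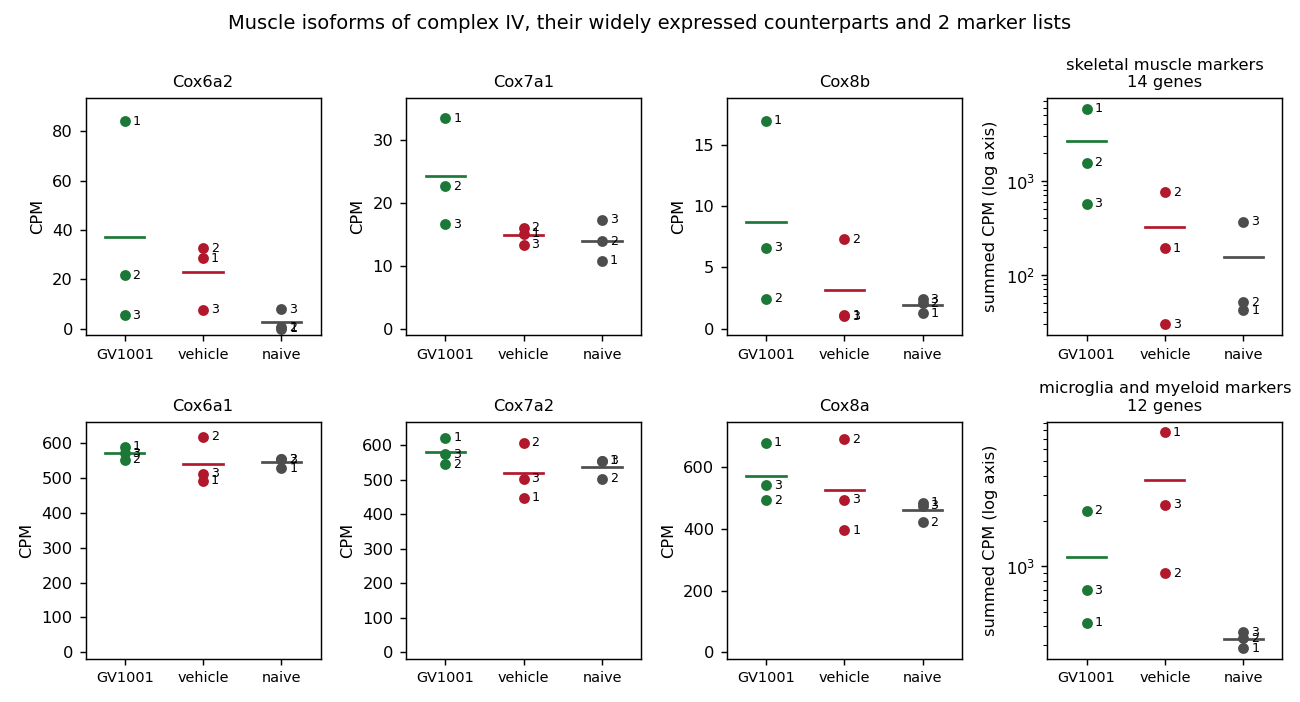
CPM by group (y axes start at 0) of the muscle isoforms Cox6a2, Cox7a1 and Cox8b above their common counterparts Cox6a1, Cox7a2 and Cox8a, beside the summed CPM of 14 muscle and 12 myeloid markers on log axes; numbered points are replicates and lines are means of 3. GV1001 replicate 1 is highest for each muscle isoform and for the muscle markers, at 5854 summed CPM.

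Other restricted isoforms were scarce. Cox6b2, known from testis, had 28, 56 and 60 counts in GV1001, 32, 48 and 60 in vehicle, and 38, 44 and 14 in naive replicates, with log2 fold changes of 0.55 ± 0.39 in vehicle against naive (edgeR adjusted p = 0.492) and −0.01 ± 0.37 in GV1001 against vehicle (0.997). Cox4i2, the lung-enriched and hypoxia-responsive form of subunit 4, had 0.565, 1.92 and 0.806 CPM in GV1001, 1.84, 1.50 and 1.18 CPM in vehicle, and 1.26, 0.695 and 1.47 CPM in naive replicates and was not tested. The testis forms Cox7b2 and Cox8c had 5 counts or fewer in every library, and Cox8c had 3, 0 and 1 in GV1001 and 0 in all others. Ndufa4l2, a hypoxia-induced paralog of Ndufa4, had 14, 21 and 19 counts in GV1001, 16, 23 and 6 in vehicle, and 10, 6 and 7 in naive replicates. GV1001 libraries of Ndufa4l2 lay above all naive ones, at 1.17 ± 0.52 (edgeR adjusted p = 0.670).

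Complex V, the ATP synthase, had medians of 0.00, 0.13 and 0.08, and its summed level was 7112, 5677 and 5856 CPM in GV1001, 4844.5, 6887 and 5616 CPM in vehicle, and 6075, 5595 and 5929 CPM in naive replicates. Atp5g3, which encodes the c subunit of the rotor ring and had the highest counts of all members, had 1496, 1158 and 1150.1 CPM in GV1001, 872, 1514 and 1094 CPM in vehicle, and 1187, 1136 and 1159 CPM in naive replicates. The naive libraries of Atp5g3 were close together, and the vehicle libraries lay far to both sides of them. Its log2 fold changes were 0.00 ± 0.18 in vehicle against naive (edgeR adjusted p = 0.999) and 0.13 ± 0.18 in GV1001 against vehicle (0.844).

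Atp5d, the delta subunit of the central stalk, had 188, 213 and 224 CPM in GV1001, 168, 164 and 181 CPM in vehicle, and 188, 167 and 185 CPM in naive replicates. The GV1001 libraries were above all vehicle libraries, at 0.29 ± 0.098 (edgeR adjusted p = 0.528). Against naive the log2 fold change was 0.21 ± 0.098 (edgeR adjusted p = 0.689). There GV1001 replicate 1 (188.4 CPM) was only just above naive replicate 1 (188.0 CPM). Atp5j2, the membrane subunit f, had 475, 518 and 529 CPM in GV1001, 461, 467 and 414 CPM in vehicle, and 516, 490.1 and 521 CPM in naive replicates. Vehicle libraries of Atp5j2 were below all the others, at −0.19 ± 0.090 against naive (edgeR adjusted p = 0.291). Atp5g2, a second gene for the c subunit, had only 7, 11 and 14 counts in GV1001, 15, 3 and 19 in vehicle, and 15, 7 and 6 in naive replicates, and was among the 3 members with the largest spread. These counts are uncertain, since the treatment of reads that match several places in the genome is not given in the sources used here.

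GC content moved with these values to a degree that differed between libraries. Transcript GC content was available for 93 of 93 tested members, from the longest protein-coding transcript in GENCODE M21. Across 90 members, leaving out the muscle isoforms, Spearman's rho of the log2 deviation from naive with GC content was −0.29, 0.51 and 0.36 in GV1001 replicates. It was 0.32, −0.14 and −0.02 in vehicle replicates and between −0.11 and 0.09 in naive ones. With GC content of the last 200 bases of the transcript, rho was −0.42, 0.44 and 0.42 in GV1001 replicates. In vehicle replicates that rho was 0.38, −0.25 and −0.19. These are descriptions across genes of 1 library each, which share depth and normalization. Over all 14421 genes with a value, rho with GC content of the whole transcript ran from −0.09 to 0.21.

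Split by GC content, the 31 members from 38.36% to 48.97% stood at median deviations of 0.33, −0.12 and 0.00 in GV1001 and −0.26, 0.20 and −0.05 in vehicle replicates. The 31 members from 54.36% to 63.35% stood at 0.12, 0.07 and 0.08 in GV1001 and −0.16, 0.07 and −0.09 in vehicle replicates. GC-poor members thus swung more between libraries, while GC-rich ones were more even within GV1001. Of the 8 members at an unadjusted p under 0.05 in GV1001 against vehicle, 7 were in the GC-rich set, as were 7 of the 9 whose groups did not overlap. Both counts include Cox7a1, a muscle isoform left out of the rho values. The matching shares of all genes with such GC content were not computed. With GC-corrected offsets, an alternative chosen after seeing the data, 5 members were listed in place of 8, and the median was 0.11. Fits without GC correction also listed fewer, with 5 under upper quartile normalization and 5 under library totals alone, at medians of 0.12 and 0.11. With limma-voom 8 were listed. The lower count was thus not particular to the GC correction. The share of all genes listed in these fits was not computed. Whether composition, degradation or library preparation had a part was not tested.

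**Figure D5:**
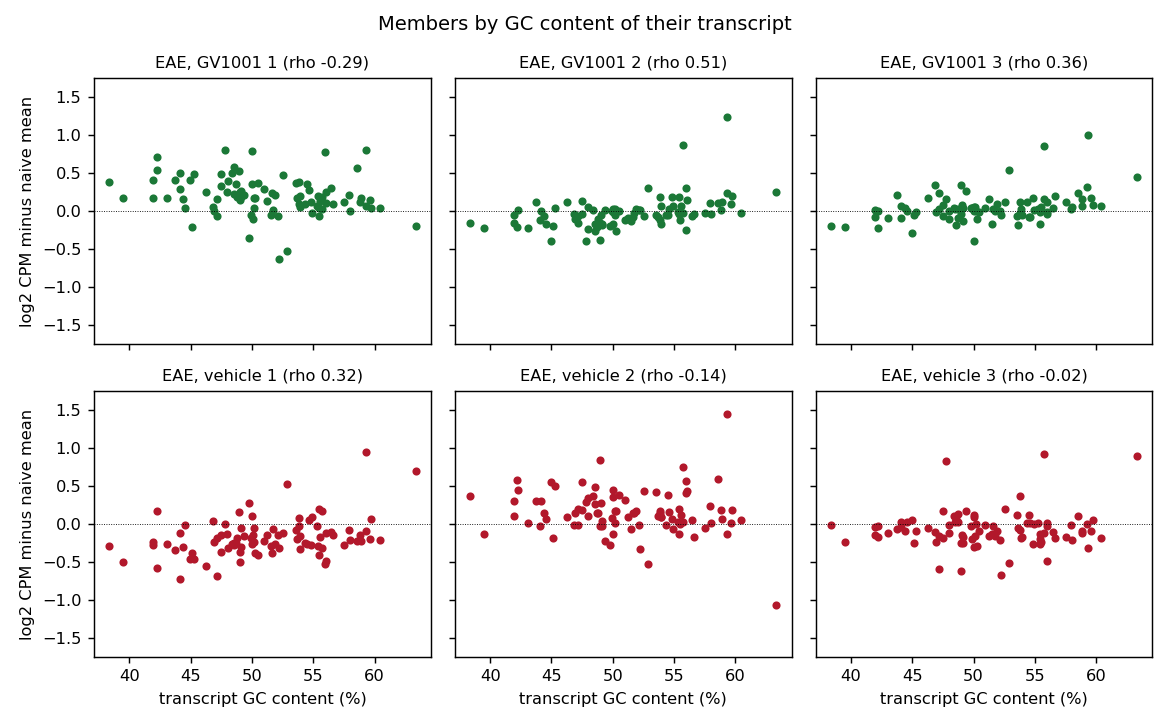
log2 CPM minus the naive mean (y axis) against transcript GC content in % (x axis) for 90 members in each diseased library, GV1001 in the upper and vehicle in the lower row, with Spearman's rho above each panel. Points slope downward in GV1001 replicate 1 (−0.29) and upward in GV1001 replicates 2 and 3 (0.51 and 0.36) and vehicle replicate 1 (0.32).

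The mitochondrial genome encodes the partners of these proteins, and its transcripts followed a somewhat different course. Of 13 such genes 7 were tested, and the other 6 had at most 2 counts in any library. All 7 had negative log2 fold changes in vehicle against naive, with a median of −0.25, where nuclear complex I subunits had −0.04. In GV1001 against vehicle 6 of 7 were positive with a median of 0.17, and in GV1001 against naive 6 of 7 were negative with a median of −0.08. ND2, a core subunit of complex I, had 4640.3, 4184 and 3933 CPM in GV1001, 3275, 3947 and 2943 CPM in vehicle, and 4988, 4848.0 and 5228 CPM in naive replicates. ND2 was −0.57 ± 0.14 in vehicle against naive (edgeR adjusted p = 0.0725), with no overlap. ND1, the gene of this list with the highest counts, was −0.22 ± 0.16 (edgeR adjusted p = 0.491). The difference between the nuclear and the mitochondrial set was not tested.

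Related nuclear gene lists gave the surroundings, each with 0 genes past the threshold in the 3 comparisons. Medians are given for vehicle against naive, GV1001 against vehicle and GV1001 against naive. The 17 tricarboxylic acid cycle enzymes had −0.13, 0.08 and 0.02. The 16 tested glycolytic enzymes had −0.07, 0.11 and 0.05 (Aldoc −0.04 ± 0.11). The 14 genes for electron carriers and the outer ends of the chain had 0.05, 0.05 and 0.04 (Slc25a4, the ADP/ATP carrier, −0.03 ± 0.18). The 46 tested assembly factors outside the Nduf names had −0.04, 0.03 and 0.03 (Cox17, a copper chaperone, 0.15 ± 0.22). All of these medians lay within 0.15 log2 units of 0.

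Genes that regulate or translate mitochondrial proteins were as close to 0. The 15 regulators of mitochondrial biogenesis had medians of −0.04, 0.00 and 0.06. Ppargc1a, the coactivator PGC-1α, had 103, 76.3 and 117 CPM in GV1001, 73.2, 103 and 94.9 CPM in vehicle, and 104, 109 and 103 CPM in naive replicates, and was −0.22 ± 0.16 in vehicle against naive (edgeR adjusted p = 0.505). Tfam, which packages mitochondrial DNA, was −0.05 ± 0.23 (0.928). The 77 tested mitochondrial ribosomal proteins had −0.02, 0.04 and 0.05 (Mrpl53 −0.17 ± 0.10). Cytoplasmic ribosomal proteins, another set of abundant short transcripts, had 81 of 83 positive in vehicle against naive with a median of 0.51 (Rplp1 0.24 ± 0.21), and −0.28 and 0.23 in the other comparisons. They were highest in vehicle replicate 1 (0.74 log2 units above naive), where the respiratory chain members were lowest, and the difference between these sets was not tested.

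Marker lists of cell types set these values in context, again with 0 genes past the threshold. Medians for vehicle against naive, GV1001 against vehicle and GV1001 against naive were 3.29, −1.62 and 1.65 for microglia and myeloid markers and −0.31, 0.21 and −0.10 for neuron markers. They were −0.27, 0.05 and −0.22 for oligodendrocyte, 0.44, −0.21 and 0.10 for astrocyte, 0.14, 0.94 and 1.16 for Schwann cell and −0.30, 0.01 and −0.21 for spinal cord markers. The most abundant genes of the myeloid, neuron, oligodendrocyte and astrocyte lists in vehicle against naive were Ctss at 3.76 ± 0.84, Nefl at −0.34 ± 0.11, Mbp at −0.32 ± 0.15 and Slc1a2 at 0.05 ± 0.13, with Acta1 of muscle at 1.44 ± 1.24 and Cidea of brown fat at −0.63 ± 0.34.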

How the data were processed

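Spinal cord RNA of 9 libraries, 3 a group, was extracted with TRIzol or a Maxwell kit and sequenced as QuantSeq 3′ libraries, per the labels' protocols, which do not tie a method to a sample. The deposited tables hold unnormalised read counts for each gene symbol, and per the submitters' processing notes FastQC, STAR, HTSeq and the build GRCm39 were used. Versions, strand setting and annotation release are not given in the sources used here. The single-library files held the same counts as the table of all samples (0 differing values). Total counts were 5247246 to 6174870.

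Treatment labels gave the groups. The low count filter was filterByExpr (minimum count 10), followed by TMM scaling and a quasi-likelihood F test (edgeR 4.0.16) in 1 fit of all 9 libraries. Benjamini-Hochberg adjustment ran over 15351 genes, threshold 0.05, and standard errors were derived from F. DESeq2 1.42.0 and limma-voom (limma 3.58.1) ran beside it in R 4.3.3. The fits were also run on counts simulated from the naive means with the same dispersion for all genes. No shift shared by many genes of a library was simulated, so that run cannot show how the fits behave with such shifts. Summed and per-gene CPM used TMM-scaled library sizes, and deviations used log2 CPM with a prior count of 2. Spearman's rho came from scipy 1.17.1 in Python 3.11.15.

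Members and lists were chosen with earlier results of these data known. The named genes were, for each complex, the member with the smallest p in each comparison and that with the highest counts, the 3 steadiest and 3 most variable members, the complex II subunits, Cyc1, the tissue isoforms and their partners, Ndufa4, Ndufa4l2 and Cox7a2l, with the most abundant gene of each other list, Ppargc1a and Tfam. Atp5if1, also in that rule, is not a member by symbol. Genes outside it were named after their values were seen. Mitochondrial symbols were matched to the table's spelling after it was seen. Of the 100 members, 99 matched a RefSeq gene and 78 a promoter window, and 5 had more than 1 window, of which the first listed was used. GC content came from GENCODE M21 (GRCm38), so no gene coordinates are given on the files' build. Of the 9 pairs of libraries with the same replicate number, 2 had a correlation over 0.1 after group means were removed, so the number was not used to pair samples. Alternatives covered tool, normalization, filter, groups in the fit, the replicate block, leaving out each library and GC-corrected offsets. Single-gene values of some genes in the related lists are not reported here.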

Additional observations from a re-analysis of the deposited data

How the results depend on the processing

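The counts of members past the threshold stayed at 0 in all 3 comparisons under DESeq2, limma-voom, the older form of the edgeR fit, RLE, upper quartile and library-total normalization, no or a stricter filter, a fit of the 2 groups alone, GC-corrected offsets and leaving out any library, with 1 exception. Without vehicle replicate 2 the count in vehicle against naive was 1 (Ndufaf5), so with 1 library left out it ranged from 0 to 1. That fit called 1652 genes against 3 with all libraries, and 12 of 94 members were at an unadjusted p under 0.05 in place of 3 of 93, beside 25.3% of all genes in place of 19.3%. In GV1001 against vehicle the same step gave 27 of 94 members in place of 8 of 93, beside 17.2% of all genes in place of 9.08%.

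Leaving out 1 library moved the median log2 fold change of members between −0.14 and 0.02 in vehicle against naive, 0.01 and 0.20 in GV1001 against vehicle, and 0.01 and 0.13 in GV1001 against naive. The median of vehicle against naive thus changed sign without vehicle replicate 1. Among medians per complex, 1 of 360 recomputed values moved by more than the pooled SD between replicates of a group. It was that of the assembly factors without vehicle replicate 2 (−0.29). Of 1916 recomputed log2 fold changes of the members chosen by the naming rule, which does not cover Ndufaf5, 70 changed sign and 0 passed the threshold, and all 70 were at most 0.68 in size with the main settings. None of 90 recomputed sums moved by more than the spread between replicates.

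With the replicate block, 0 members passed in any comparison and the medians were −0.04, 0.12 and 0.08. The replicate numbers pair samples by number only, and of 9 pairs 2 correlated above 0.1. With 3 libraries a group, a member's log2 fold change had a median standard error of 0.132, and differences of that size in a single member were not detectable. Larger ones did not pass either, such as 0.29 ± 0.098 for Atp5d in GV1001 against vehicle (edgeR adjusted p = 0.528).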
